A study of Mus musculus with 3 samples.

Results

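Otor-high Apod-low cells were 156 of the 6264 cells kept from organoids on day 25 of differentiation (2.49%, 2.12 to 2.91%, exact Clopper-Pearson 95% interval) and of 48110 cells kept in the whole series. A cell was a member when Epcam was at most 900, Otor at least 2000 and Apod under 1000 CPM (counts per 1000000 UMIs, here of the cell's own), with at most 1 UMI of Pou4f3. A UMI, or unique molecular identifier, marks 1 captured transcript molecule. Barcodes with fewer than 500 genes, or with more than 20% of UMIs on mitochondrially encoded genes, were not considered. Since the members were chosen by measured values, the contrast with the other day 25 cells is a description of that choice, and nothing in it was tested.

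The organoids were grown from Lgr5+ progenitor cells of C57BL/6 mouse cochleae and profiled with 10x 3' v3 single-cell libraries in 3 groups of 1 library each. Expansion organoids (passage 2, day 8) had a DMEM/F-12 and GlutaMAX medium with penicillin/streptomycin, B27 and N2, to which IGF at 50 ng/mL, bFGF at 10 ng/mL and EGF at 20 ng/mL were added, with LPA (2.5), Y-27632 (10) and CHIR99021 (3, all 3 in the unit that the labels write as um). Day 5 and day 25 organoids had been expanded in that medium first and were then given RA, A83-01, Shh, BDNF and bFGF, with LY4115775 up to day 5 only. In all groups the organoids were taken apart with trypsin and single living cells were sorted. The labels name no tissue of origin other than the progenitor cells, and how many animals or cultures went into a library is not given in the sources used here.

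In the cochlea, otic mesenchyme surrounds the epithelial duct and forms the fibrocytes of the spiral ligament and limbus, which take up and recycle potassium, and the bony capsule. Pou3f4 and Tbx18 encode transcription factors of this mesenchyme that are needed for its normal development. Otor encodes otoraplin, a small secreted protein of the MIA family that was found in cochlear mesenchyme. Apod encodes apolipoprotein D, a secreted carrier of lipids, and Epcam and Pou4f3 mark epithelial cells and hair cells.

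The members held 1209872 UMIs in all, with a median of 7480.5 UMIs, 2766 genes and 4.40% mitochondrial UMIs per cell, and the deepest held 17448 UMIs. The other 6108 day 25 cells had a median of 8655.5 UMIs. Levels of a group are CPM over its summed cells, with exact Poisson 95% intervals, and folds with exact conditional binomial intervals. Both cover counting error only, and with 1 library per group no test between groups was possible. A gene with no UMI in the members lies under a floor of 2.48 CPM (3 UMIs over the group). Of the members, 2 were called doublets and were kept. The day 25 library shared 51 kept barcodes with the expansion library and 21 with the day 5 library, and 1 member was among them.

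In the members Otor ranged from 2001 to 20489 CPM, with a median of 6461, and Apod from 0 to 999.8, with a median of 262. The highest Otor value of a cell just left out was 1914, and the lowest Apod value just left out was 1009. Apod had no UMI in 40 members, Epcam none in 114, and Pou4f3 1 UMI in 5. The thresholds ran through a continuous cloud: 207 cells met the Epcam, Pou4f3 and Otor conditions but had more Apod. The plot of Otor against Apod shows no gap at either line.

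**Figure D1:**
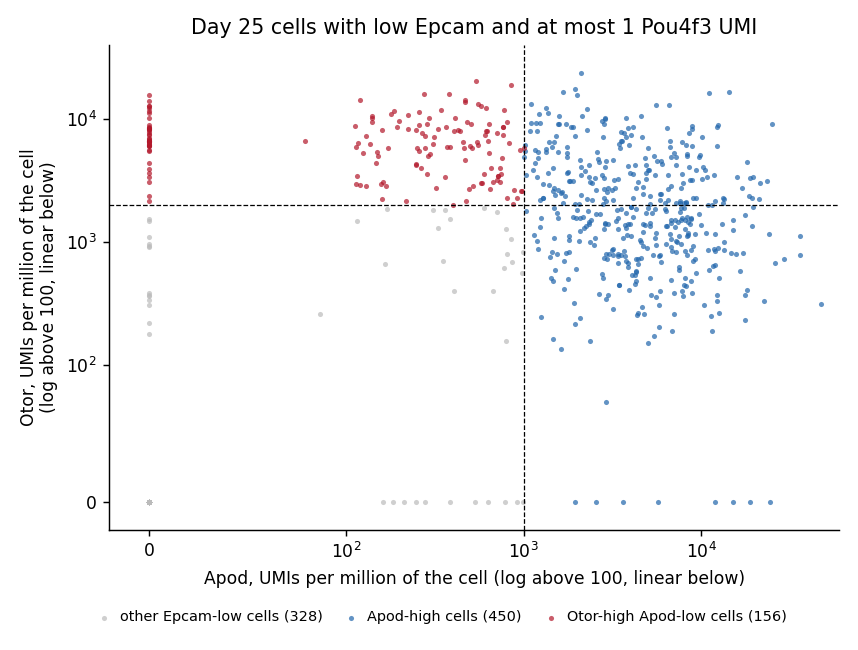
Otor (vertical axis) against Apod (horizontal axis) in CPM of the cell (logarithmic above 100, linear below), for the 934 day 25 cells with low Epcam and at most 1 Pou4f3 UMI. Dashed lines mark 2000 for Otor and 1000 for Apod. The 156 members occupy the upper left field, and the 450 Apod-high cells on the right overlap them in Otor.

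Pou3f4 and Tbx18, factor genes of otic mesenchyme, were high in these cells and near 0 in the epithelial and hair cell groups. Some other factors of the list were also found in those groups, and Tcf21 and Meis1 had no UMI in the members. The 23 otic mesenchyme factors summed to 2721 CPM in the members, 1102 CPM in Epcam-high cells and 1158 CPM in Pou4f3-positive cells (both defined next). Pou3f4 stood at 261 CPM (233 to 292) in the members, against 1.37 CPM in the 3709 cells with Epcam above 900 CPM and at most 1 Pou4f3 UMI (Epcam-high cells) and 2.93 CPM in the 1621 cells with more than 1 Pou4f3 UMI (Pou4f3-positive cells). The Pou3f4 gene lies on chromosome X, 110814280 to 110817207 in GRCm38, and Otor on chromosome 2, 143078473 to 143081713 (GENCODE M21). A Pou3f4 UMI was found in 115 of 156 members (73.7%) and in 0.809% of Epcam-high cells, whose median depth of 9013 UMIs was greater. Thinned to 2000 UMIs per cell, which left 153 members, the shares were 34.6% and 0.370%. Per cell, Pou3f4 ranged from 0 to 1129.8 CPM with a median of 207. Tbx18 (chromosome 9, 87702800 to 87731260) was at 315 CPM (284 to 348) and was found in 126 members, against 1.71 and 1.72 CPM in the Epcam-high and Pou4f3-positive cells. Twist1, a factor of mesenchymal cells, was at 293 CPM, Zeb2, a repressor of epithelial genes, at 267, Foxc1 at 219.9 and Prrx1 at 102 CPM, where all other day 25 cells summed together had 15.9, 16.9, 27.4 and 9.41 CPM. Of 15 otic mesenchyme factors with at least 20 CPM in the members or in the other day 25 cells, 10 were at least 2-fold higher in the members and 3 lower, namely Tbx2, Meis2 and Nr2f1, the last at 236 against 474 CPM. Over all 7481 genes tested in the same way, 862 were higher (11.5%) and 1219 lower (16.3%), with a median log2 ratio of -0.08.

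The promoters of Otor and of the mesenchyme factor genes Pou3f4 and Tbx18 are shown because Otor set the membership and the label rests on the other two. Each window runs from 250 bases before to 50 bases after the start site as RefSeq places it in GRCm38.p6, 5′ to 3′ on the gene's strand: chr2:143078143-143078442 on the plus strand for Otor, chrX:110814129-110814428 on the plus strand for Pou3f4 and chr9:87731211-87731510 on the minus strand for Tbx18. Capitals mark matches on either strand to any of 5 motifs: the TATA box TATAAA, the POU octamer ATGCAAAT, a T-box half-site AGGTGTGA, the TEAD motif GGAATG and the AP-1 motif TGANTCA.
Otor: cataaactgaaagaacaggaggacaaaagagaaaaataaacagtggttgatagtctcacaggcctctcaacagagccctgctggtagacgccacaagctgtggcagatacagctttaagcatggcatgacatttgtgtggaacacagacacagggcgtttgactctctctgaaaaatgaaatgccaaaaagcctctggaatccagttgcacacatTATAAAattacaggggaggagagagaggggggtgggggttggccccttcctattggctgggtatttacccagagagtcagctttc
Pou3f4: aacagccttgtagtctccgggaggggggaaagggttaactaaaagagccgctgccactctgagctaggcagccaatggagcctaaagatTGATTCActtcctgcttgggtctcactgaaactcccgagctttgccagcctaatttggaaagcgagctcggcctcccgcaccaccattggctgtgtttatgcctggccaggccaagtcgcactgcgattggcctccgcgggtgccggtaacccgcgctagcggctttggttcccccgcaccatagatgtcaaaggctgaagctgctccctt
Tbx18: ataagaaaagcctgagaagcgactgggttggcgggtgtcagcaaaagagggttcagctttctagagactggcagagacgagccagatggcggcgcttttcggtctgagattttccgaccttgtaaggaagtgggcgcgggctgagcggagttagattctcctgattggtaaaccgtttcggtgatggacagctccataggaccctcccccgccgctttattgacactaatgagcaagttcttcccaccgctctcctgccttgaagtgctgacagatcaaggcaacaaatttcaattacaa
The Otor window holds a TATA box 35 bases before the RefSeq start site, a motif found in 13.6% of all 32851 windows. The GENCODE start of Otor given above lies beyond the end of this window. That of Pou3f4 lies inside its window but before the RefSeq start. Distances here therefore hold for the RefSeq starts only. The Pou3f4 window holds an AP-1 match 161 bases before the RefSeq start, and 7.81% of windows hold such a match. The Tbx18 window matches none of the 5. The POU octamer, found in 1.74% of windows, is in none of the 3, which says only that these letters are absent from these stretches.

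Of the general mesenchyme markers listed for naming, Otor was set by the rule and is left out here. Of the others, 12 had at least 20 CPM in the members or in the other day 25 cells, and of these 10 were at least 2-fold higher in the members and 2 were lower. Vim, the intermediate filament of mesenchymal cells, was at 1239 CPM against 172 in the other cells, the growth factor receptor genes Pdgfra and Pdgfrb at 102 and 109 CPM against 28.5 and 8.03, and Col3a1 at 122 against 5.98 CPM. Other markers went against the label of mesenchyme. Col1a1, the main collagen gene of most fibroblasts, had no UMI among 1209872, and Col1a2 had 47 UMIs in 29 cells (38.8 CPM). The fibroblast proteoglycan genes Dcn and Lum were at 29.8 and 17.4 CPM in the members, below the Epcam-high cells at 413 and 1058 CPM. The name mesenchyme-like rests here on part of the transcription factors, Vim and part of the matrix, and not on the collagen of fibroblasts.

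**Figure D2:**
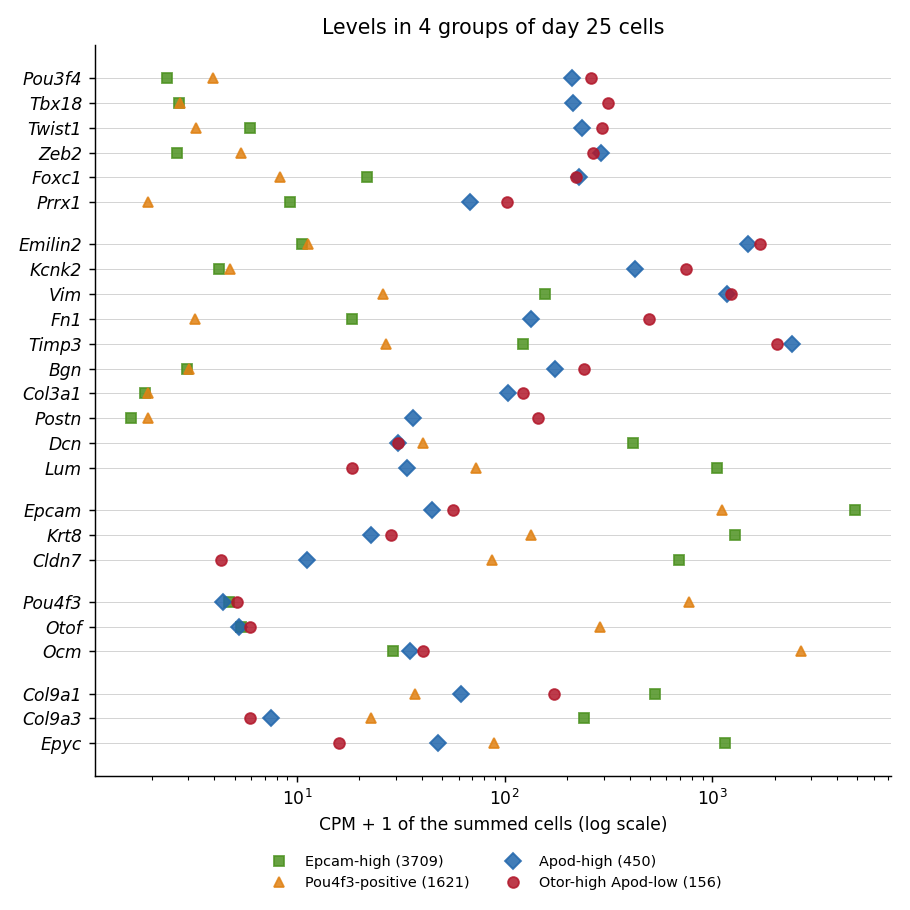
Levels of 25 genes (CPM + 1 of the summed cells, logarithmic axis) in 4 groups of day 25 cells, with the number of cells in parentheses. Members and Apod-high cells lie together at the right for the mesenchyme factors, with Pou3f4 at 261 and 209.9 CPM, while Dcn, Lum and the epithelial, hair cell and cartilage genes are highest in the epithelial or hair cell groups.

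Genes of cochlear fibrocytes were split. Of 15 measured, leaving out Otor, 7 were higher and 5 lower than in the other day 25 cells. Emilin2 (chromosome 17, 71252172 to 71311978), which encodes an elastin-associated glycoprotein, was at 1705 CPM (1632 to 1780.3) and in 150 of 156 cells (96.2%, or 86.3% thinned), against 9.55 CPM and 3.45% of Epcam-high cells (1.19% thinned). Kcnk2, a potassium leak channel gene, was at 751 CPM against 24.8 CPM in the other day 25 cells. It was found in 75.6% of members and in 75.3% of the 450 Apod-high cells. Aqp1, the gene of a water channel, was at 55.4 CPM against 8.00 in the other cells, and Cav1, a component of membrane caveolae, at 260.4 against 31.2. Coch, the fibrocyte gene of cochlin, was at 29.8 CPM (36 UMIs), above the 2.02 CPM of the other cells. The anion exchanger gene Slc26a4, at 0.827 against 48.6 CPM, and the gap junction gene Gjb2, at 22.3 against 436 CPM, were lower. Of the potassium, ion and water transport list, 7 of 17 were higher and 7 lower. Of the sodium pump beta subunit genes, Atp1b3 was at 259.5 CPM against 54.6 and Atp1b1 at 95.1 against 1257 CPM.

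The largest difference toward the members, on the log2(CPM + 1) scale, was that of Nov, which encodes the secreted matricellular protein CCN3 (chromosome 15, 54745702 to 54754039). It stood at 1270.4 CPM (1208 to 1336) against 16.6 CPM in the other cells, 76.6-fold (71.0 to 82.6) higher, and was found in 118 members with a median of 753 and a maximum of 8559.8 CPM. Among the next were signalling genes: Rgs16 and Rgs17, which encode proteins that shorten G-protein signals, were 32.3-fold (29.7 to 35.3) and 33.7-fold higher, and the G-protein subunit gene Gng11 35.7-fold. Epha5, an ephrin receptor gene, was at 341 against 10.1 CPM. Tnfaip6, whose protein remodels hyaluronan, was at 775 against 24.6 CPM, and the adhesion gene Vcam1 at 217 against 7.75. The matrix genes Postn (periostin), Loxl2 (a collagen crosslinking enzyme) and Fndc1 were 56.4-fold, 28.6-fold and 52.4-fold higher. Postn was carried by 56 of 156 members. Kcnk2, Gimap6, the growth factor gene Fgf2 and the cyclin gene Ccnd2, at 544 CPM and in 144 members, completed the 15 largest together with Otor itself. Ptn, the gene of the growth factor pleiotrophin, was named after its values were seen. It was found in 156 of 156 members at 14549 CPM, against 913 CPM in the others. Several of these genes were common in the Apod-high cells too: Ptn was found in 98.9% of them, Tnfaip6 in 71.3% and Rgs16 in 62.7%, but Nov in 42.2% and Postn in 12.4%.

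At the other end, all 9 measured genes of the epithelial list other than Epcam were lower in the members. Cldn7, a tight junction claudin gene, had 4 UMIs in the members and 490.1 CPM in the other cells, 148-fold (57.9 to 544) lower. Cldn4 and Cldn3 had 3 and 9 UMIs, and the polarity gene Pard6b had 1, 149-fold lower by its ratio (counting interval 26.7 to 5871). Rnase1, Agr3, Bspry and Shtn1 had no UMI, and the limits of their counting intervals lay at 27.6-fold, 25.7-fold, 21.2-fold and 17.0-fold lower. Plet1, Wfdc18, Mal, Vmo1 and Strip2 had 1 or 2 UMIs each. The keratin gene Krt18 was at 13.2 against 781 CPM, 59.0-fold (36.3 to 103) lower, and Epcam, set by the rule, at 55.4 against 3583 CPM.

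Of 24 fibrillar collagen and matrix genes measured, 17 were higher in the members and 6 lower (list median log2 ratio 2.65). Summed, however, the list was at 3499 CPM in the members, 3399 in the other day 25 cells and 4543 in Epcam-high cells. The summed level was thus not higher than in epithelium. Fn1, the gene of fibronectin, was at 493 CPM (455 to 535) and in 121 cells, against 20.9 CPM in the others, Bgn (biglycan) at 241 against 10.8, Lox, a crosslinking oxidase gene, at 151 against 16.6, and Col5a2 at 78.5 against 3.04 CPM. Of 16 basement membrane genes, 8 were higher, among them Nid1 at 114 against 6.45 CPM and Lama4 at 99.2 against 4.53, and 4 lower, among them Lama5, the laminin chain gene of epithelia, at 4.13 against 40.2 CPM. Protease and inhibitor genes were mostly higher (9 of 12, 1 lower), with the metalloprotease inhibitor gene Timp3 at 2049 against 210.1 CPM and present in 154 members. Cartilage genes were not higher in any of 13 cases and were lower in 10: Col9a3 had 6 UMIs, and Acan, Comp and Hapln1 had none.

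Signalling genes are given by role. Of 24 measured genes of the BMP and TGF-beta pathway, 16 were higher and 5 lower. Among ligand genes Bmp5 was at 77.7 against 11.5 CPM and Tgfb1 at 107 against 14.0, while Tgfb2, Bmp7 and Bmp6 were lower, at 146, 6.61 and 0 CPM against 482, 127 and 29.6. The receptor genes Tgfbr1 and Tgfbr2 were at 108 and 88.4 CPM against 31.1 and 24.4. Target genes included Tgfbi at 947 against 85.1 CPM and Id3 at 1831 against 485, whereas Id1 was at 407 against 458 CPM and did not differ by 2-fold.

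In the Wnt list 11 of 16 were higher and 2 lower. The ligand gene Wnt5b was at 37.2 against 1.47 CPM, the nuclear factor gene Lef1 at 188 against 13.0, and the feedback targets Axin2 and Nkd1 at 107 and 163 CPM against 19.03 and 22.6. Sfrp1, which encodes a secreted Wnt binding protein, was lower, at 55.4 against 1319 CPM, and Wif1, another, was higher, at 35.5 against 2.29. FGF genes were higher in 8 of 13 cases: the ligand genes Fgf2 (68.6 against 1.93 CPM) and Fgf18 (66.1 against 7.72 CPM), the receptor gene Fgfr1 (198 against 94.3 CPM) and the feedback gene Spry1 (167 against 27.3 CPM). In the retinoic acid list 4 of 11 were higher and 4 lower: Aldh1a2 and Aldh1a3, genes of retinoic acid synthesis, were at 49.6 and 6.61 against 6.78 and 52.8 CPM. The IGF binding protein gene Igfbp2 was at 1075 CPM and in 153 members, against 90.2 CPM, while Igfbp5 was lower, at 533 against 3692 CPM. In the Hedgehog list 1 of 5 was higher, the factor gene Gli3 (105 against 19.5 CPM), and Gli1 had no UMI.

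Many markers of other cell types were low or absent in the members, and some markers of several lists were higher than in the other day 25 cells. Krt19 of the epithelial list had no UMI, and the list, Epcam included, summed to 134 CPM against 9426 in Epcam-high cells. Of 18 hair cell genes other than Pou4f3, which the rule used, 17 were lower than in the other day 25 cells and none higher, and the 20 genes of the list summed to 812 CPM in members, 511 in Apod-high, 324 in Epcam-high and 19014 in Pou4f3-positive cells. Against Epcam-high cells alone, the list median log2 ratio was 0.67. Pcp4, of this list, was at 130 CPM in the members, and the 3 highest cells held 63.7% of its UMIs. Ocm, a calcium buffer gene of outer hair cells, was at 39.7, 33.9 and 28.0 CPM in members, Apod-high and Epcam-high cells, and at 2676 CPM in Pou4f3-positive cells. Calb2, another calcium buffer gene of this list, was unevenly placed, at 226, 50.0, 10.2 and 1177 CPM; it had a UMI in 92 members. Of 8 measured supporting cell genes, 3 were higher than in the other day 25 cells and 5 lower, and the list summed to 858 CPM against 3597. Macrophage genes summed to 17.4 CPM, with Ptprc and Csf1r at 0 UMIs. In the glia list 1 of 3 measured genes was higher and 2 were lower, and the Schwann cell gene Mbp had no UMI. The melanocyte list was at 99.2 CPM in the members against 49.8 in the other cells: Dct, Tyr and Tyrp1 had no UMI, whereas Mitf, a factor gene of melanocytes and other cells, was at 25.6 against 4.64 CPM (higher) and the receptor gene Kit at 72.7 against 43.6 CPM (within 2-fold). The endothelial genes Pecam1, Cdh5, Cldn5 and Tie1 were at 0, but of 3 measured genes of that list 2 were higher in the members and none lower. The list summed to 913 CPM against 83.9 in the other cells. Most of this was Emcn, which encodes the sialomucin endomucin, at 826 CPM (775 to 879) and in 149 members. In the pericyte list Pdgfrb and Tagln were higher, the latter at 111 against 3.81 CPM, while Des and Higd1b had no UMI.

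The members were not uniform. When all 6264 day 25 cells were clustered, 87 of the 156 fell in cluster 22 and 58 in cluster 23, and the remaining 11 in 3 others, 8 of them in cluster 17 with 372 Apod-high cells. The clusters were made from the same genes, so what follows describes them and tests nothing; both stay unnamed. Otor was level between them, at 7227 CPM in cluster 22 and 7287 CPM in cluster 23, as were Twist1 (273 and 330.3 CPM) and Prrx1 (107 and 97.6 CPM). Of 6902 genes tested, 674 were higher in cluster 23 (9.77%) and 796 lower (11.5%). Median depth was 7268 UMIs in cluster 22 and 7848 in cluster 23, and mitochondrial UMIs were 4.47% and 4.26%.

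The genes named next are the largest differences between these clusters and members of the lists. Higher in cluster 23 was Il1r1, the interleukin 1 receptor gene, at 270.0 CPM and in 46 of 58 cells, against a single UMI in the 87 cells of cluster 22. Flt1, of the endothelial list, had 51 UMIs in 23 cells of cluster 23 and none in cluster 22. Pmepa1, a TGF-beta target that restrains the pathway, was at 2173 CPM against 109 CPM, 20.0-fold (15.7 to 25.8) higher. The matricellular genes Ctgf and Thbs1 were at 1905 and 1294 CPM against 127 and 104. Mgp, whose product inhibits calcification, was at 1585 against 33.7 CPM, the macrophage growth factor gene Csf1 at 733 against 23.0, Tnfrsf12a at 872 against 38.3, Vegfa at 895 against 64.4, and Ccl7 at 453 against 15.3 CPM. Fgf2, 1 of the 15 genes with the largest difference between members and other cells, had 82 of its 83 UMIs in cluster 23. Of 23 fibrillar collagen and matrix genes, 12 were higher in cluster 23 and none lower, with Fn1 at 843 against 289.7 CPM and Tnc at 353 against 26.1. Of 22 BMP and TGF-beta genes, 10 were higher and 2 lower, and of 8 hair cell genes 5 were higher and none lower.

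The mesenchyme factors were divided between the clusters: of 14, 3 were lower in cluster 23 (Pou3f4, Tbx18 and Zeb2), 3 higher (Prrx2, Twist2 and Foxc2) and the others within 2-fold. Of 13 general mesenchyme markers, 5 were higher in cluster 23, among them Vim at 2038 against 676 CPM, and 2 lower. In cluster 22 Pou3f4 was at 372 against 129 CPM, Tbx18 at 454 against 137, Kcnk2 at 1180.2 against 239 (4.94-fold (4.06 to 6.06) higher) and Rgs16 at 1081 against 187 CPM. Of 17 immediate early and stress genes, 11 were lower in cluster 23 and none higher. Fos was at 1983 CPM in cluster 22 and 141 CPM in cluster 23, Atf3 at 1087 and 72.7, and Zfp36 at 593 and 64.4 CPM. Immediate early genes are the first to be induced by many signals. Socs3, an inhibitor of cytokine signals, was at 303 against 6.23 CPM, Spry1 was at 269.8 against 22.8 CPM, and the Wnt inhibitor gene Nkd2 at 147 against 6.23 CPM. The part of the immediate early genes in the other differences between the clusters was not tested. Of the Apod-high cells in these clusters, 39 in cluster 23 had Ctgf at 2563 CPM and 39 in cluster 22 had 393 CPM. The chemokine gene Cxcl1 did not follow: it was at 45.7 CPM in cluster 23 and 435 CPM in cluster 22 among the members, and at 248 and 221 CPM among the Apod-high cells. Cluster 23 also held 32 cells with Epcam above 900 CPM, at a median of 14936.5 UMIs, of which 25 were called doublets; among the 58 members there, 1 was.

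**Figure D3:**
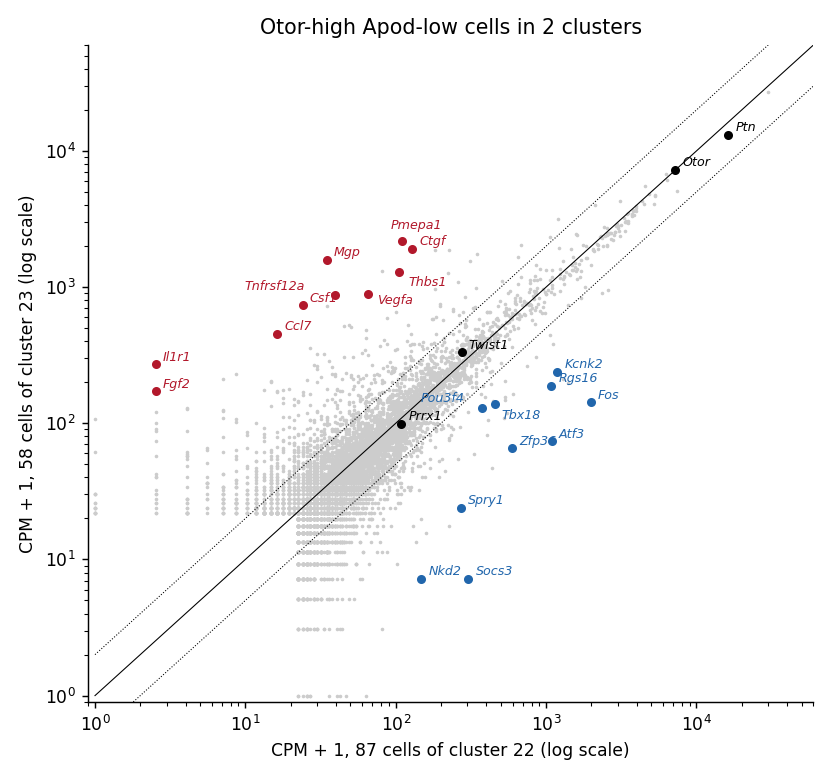
Levels (CPM + 1, logarithmic axes) of 6902 genes in the 87 members of cluster 22 (horizontal axis) and the 58 members of cluster 23 (vertical axis); the solid line marks equality and dotted lines 2-fold. Red genes such as Pmepa1 (2173 against 109 CPM) lie above the upper dotted line, blue genes such as Fos (141 against 1983 CPM) below the lower one, and Otor, Ptn, Twist1 and Prrx1 (black) between them.

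Some levels came from very few members. All 279 Saa3 UMIs lay in 3 cells and all 122 Hp UMIs in 1 cell; both encode acute phase proteins. The 3 highest cells held 71.3% of Lcn2 UMIs, an iron-scavenging secreted protein, and 47.1% of Ccl2 UMIs, a chemokine. Ccl2 was absent from most members (median 0) and reached 22227 CPM in the highest. Across 3204 genes with at least 50 CPM, the variance between members was at the median 1.14 times that of counting alone, and exceeded it by more than 5 times in 94 genes. G2/M transcripts, which mark dividing cells, also lay in few members: of 338 UMIs of 19 G2/M genes, 298 lay in 4 members with 5 or more each (2.56%, 0.703 to 6.43%). The shares of such cells were 0.222% of Apod-high, 2.70% of Epcam-high and 3.76% of Pou4f3-positive cells, whose median depths were 7321.5, 9013 and 9928 UMIs. Without those 4 cells, 860 genes were higher and 1224 lower than in the other day 25 cells.

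Within the members, Pou3f4 and Tbx18, the only mesenchyme factors compared here, differed little with the amount of Otor, and some other genes more. From the 39 cells with 2000 to 4000 Otor CPM to the 57 with 8000 or more, Pou3f4 was at 256 and 253 CPM, Tbx18 at 337 and 303, and Emilin2 at 1465 and 1791 CPM. Nov was at 733, 1469 and 1398 CPM in the low, middle and high cells, Car3, a carbonic anhydrase gene of fibrocytes, at 80.6, 245 and 455, and Igf1 at 477, 223 and 97.1 CPM.

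The nearest other day 25 cells were 450 Apod-high cells, which had Epcam at most 900 and Apod at least 1000 CPM and at most 1 Pou4f3 UMI (7.18% of kept cells, median 7321.5 UMIs); 207 of them had Otor of 2000 or more. They also carried the mesenchyme factors, with Pou3f4 at 209.9 CPM, Tbx18 at 213, Twist1 at 236, Zeb2 at 291 and Foxc1 at 228 CPM. Of 15 otic mesenchyme factors 13 were within 2-fold, a share not above the 93.4% of all genes tested. Emilin2 was at 1496 CPM and Emcn at 645 CPM. Of 6942 genes tested between the members and these cells, 213 were higher (3.07%) and 245 lower (3.53%), with a median log2 ratio of -0.05.

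Genes higher in the members included Nov (1270.4 against 252 CPM, 5.05-fold), the neuropeptide gene Npy (81.0 against 9.89 CPM, 8.19-fold), Rgs2 (283 against 55.6 CPM), Nav2, Fndc1, Pxdc1, Col25a1, Cthrc1 and the fibrocyte gene Car3 (279 against 65.0 CPM). Npy was present in 31 of 156 members and Car3 in 51, so these 2 were carried by a minority. Of 21 matrix genes, 7 were higher and none lower; Fn1 was at 493 against 133 CPM, Postn at 144 against 35.0, Loxl2 at 149.6 against 46.0 and Col1a2 at 38.8 against 11.0 CPM. Of 7 cartilage genes, 4 were higher and 1 lower, with Col2a1 at 90.1 against 35.3 CPM and Col9a1 at 173 against 60.4. Of 6 G2/M genes, 5 were higher, with most of their UMIs in the 4 members named above. Among genes lower in the members, besides Apod, the complement gene Cfi was at 0.827 CPM (1 UMI) against 51.4, Lcn2 at 196 against 1530.1, the defensin gene Defa30 at 4.13 against 115, and the cystine transporter gene Slc7a11 at 8.27 against 82.2 CPM. Of 16 complement, chemokine and acute phase genes, 8 were lower and 1 higher (Mt2). The growth factor gene Igf1 was at 239 against 1128 CPM, its binding protein gene Igfbp4 at 316 against 649, the interferon-induced gene Ifitm1 at 839.8 against 3321, and the receptor kinase gene Met at 9.09 against 65.0 CPM. Ramp1, Cemip, Itih2 and Mmp11 were 9.87-fold, 7.97-fold, 7.21-fold and 6.08-fold lower.

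Several of these genes varied with the amount of Apod among cells of high Otor. Sorted by Apod into cells with 0 UMIs (40), under 500 (72), 500 to 1000 (44), 1000 to 4000 (114) and 4000 or more CPM (93), the first 3 being the members, Nov was at 1733, 1345, 796, 438 and 164 CPM. Igf1 was at 117, 254, 307, 849.6 and 1022 CPM, and so was already higher with more Apod among the members. Npy was at 77.0, 77.7 and 89.4 CPM in the 3 groups of members, 20.8 CPM at 1000 to 4000 Apod and 1 UMI (1.36 CPM) above. Emilin2 stayed between 1391 and 1883 CPM throughout. Otor also fell over these groups, at 7688, 6834, 6666, 5591 and 4522 CPM, and its part in the other values was not tested. Genes named for differing between members and Apod-high cells show a step at 1000 Apod CPM by that choice. With the comparison limited to the 40 members without an Apod UMI, 358 genes were higher and 602 lower than in Apod-high cells.

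**Figure D4:**
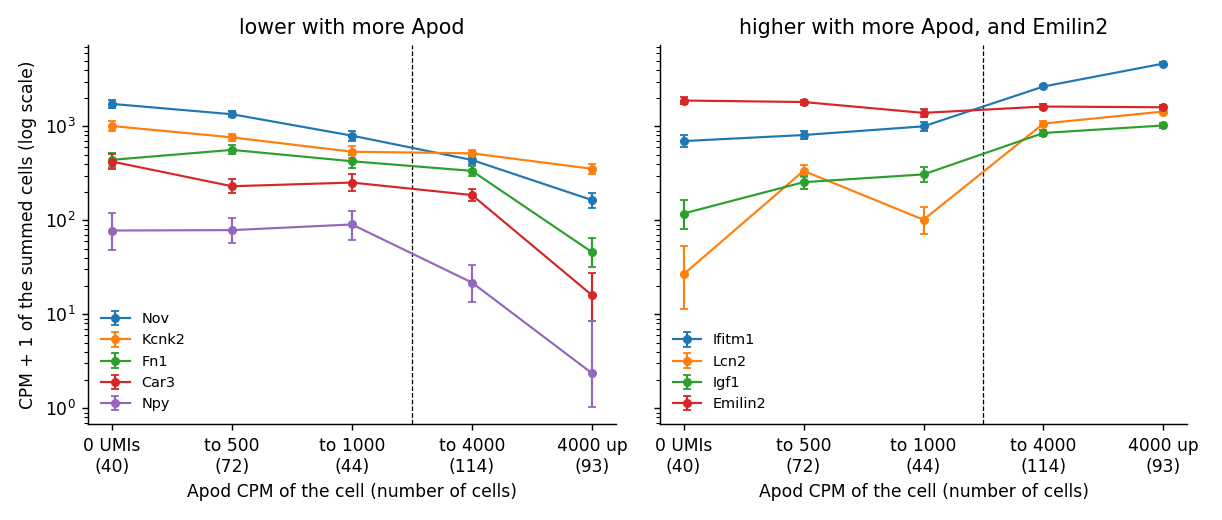
Levels (CPM + 1 of the summed cells, logarithmic axis, bars exact Poisson 95% intervals) of 9 genes in cells with Otor of 2000 or more CPM, sorted by Apod; the dashed line separates members from cells with more Apod. Nov drops from 1733 to 164 CPM and Igf1 climbs from 117 to 1022 CPM, while Emilin2 stays level.

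The same thresholds selected 4730 of 13850 kept cells on day 5 (34.2%, 33.4 to 34.9%) and 2584 of 27996 in expansion (9.23%, 8.89 to 9.57%), against 2.49% on day 25. Each share is of 1 library, so day and library cannot be told apart. The rule selects shallower cells in the other libraries, with a median of 6115.5 UMIs on day 5 and 3855.5 in expansion. Apod-high cells were 0.426% of kept cells on day 5, 1 cell in expansion and 7.18% on day 25. Otor itself stood at 8469 CPM in the selected cells of day 5 and 240.4 in the remaining cells, and at 3205 and 197 CPM in expansion. Pou3f4, which the rule did not use, was at 279 against 14.8 CPM on day 5 and 145 against 24.7 CPM in expansion. Tbx18 was at 220.4 against 12.1 CPM on day 5 and 159.5 against 26.6 CPM in expansion. In each of the 3 libraries both factors were higher in the selected cells than in the rest.

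Compared with cells of the rule on day 5, the day 25 members had more of the complement, chemokine and acute phase list. Of 6838 genes tested, 1133 were higher on day 25 (16.6%) and 453 lower (6.62%), with a median log2 ratio of 0.20. This split depended on scaling: with TMM scaling 718 were higher and 830 lower (median -0.07), and with median of ratios scaling 780 and 750 (median -0.02). The complement, chemokine and acute phase list had 10 of 11 genes higher with either scaling and 11 without it, the FGF list 8 of 12 against 9, and the cartilage list 6 lower in each case. Pou3f4 was at 261 against 279 CPM, and 11 of 14 otic mesenchyme factors were within 2-fold, a share near the 76.8% of all genes tested. Twist1 (293 against 104 CPM) was higher. Emilin2 (1705 against 848 CPM) only just reached 2-fold without scaling, and either scaling lowers the ratios of this comparison. Mt1, a metallothionein gene, was at 1865 against 28.2 CPM, 66.2-fold (61.4 to 71.5) higher, and was found in 137 members. Calb2 was 45.7-fold, Ogn, a small proteoglycan gene, 28.3-fold, the factor gene Runx1 24.1-fold, the growth factor gene Hbegf 22.6-fold and Sphk1 34.3-fold higher. Ctgf and Thbs1 were 28.6-fold and 27.9-fold higher, at 30.2 and 21.9 CPM on day 5; in the cluster 22 members alone they stood at 127 and 104 CPM. Hp and Saa3 also were among the 10 largest, but rest on the 1 and 3 cells given above. All 11 measured complement, chemokine and acute phase genes were higher on day 25, with Ccl2 at 870.3 against 304 CPM. The 3 highest members held 47.1% of Ccl2, 71.3% of Lcn2, 42.0% of Ccl7 and 30.7% of Cxcl1 UMIs. They held 15.3% of Mt1 and 17.5% of Mt2 UMIs. The part of such cells in the count of 11 was not tested. In the remaining cells this list summed to 1685 CPM on day 25 and 244 on day 5. FGF genes were higher in 9 of 12 cases and none was lower, among them Fgfr1 (198 against 68.1 CPM) and Spry1 (167 against 36.3 CPM).

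Among genes lower on day 25, Col2a1 was at 90.1 against 811 CPM, 9.00-fold (7.46 to 11.0) lower, Epyc at 14.9 against 214 CPM, Col9a3 at 4.96 against 86.9 and Tecta, encoding alpha-tectorin, at 9.09 against 121 CPM. Of 10 cartilage genes, 6 were lower and 1 higher (Sox9, within 2-fold with either scaling). Gap43, a growth cone gene, was 21.2-fold (9.06 to 65.2) lower, and Lsamp, Baalc, Fabp5, Gata3 and the histone gene Hist1h2ap 12.7-fold, 10.7-fold, 8.52-fold, 8.07-fold and 7.82-fold lower. Some of these genes were higher still in the other cells of the day 5 library: Col2a1 was at 1607, Epyc at 2303, Tecta at 1122 and Gata3 at 704 CPM there, and the part of their RNA in the day 5 values was not tested. Gap43 was at 7.16 CPM in those other cells, below the 87.5 CPM of the selected ones.

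**Figure D5:**
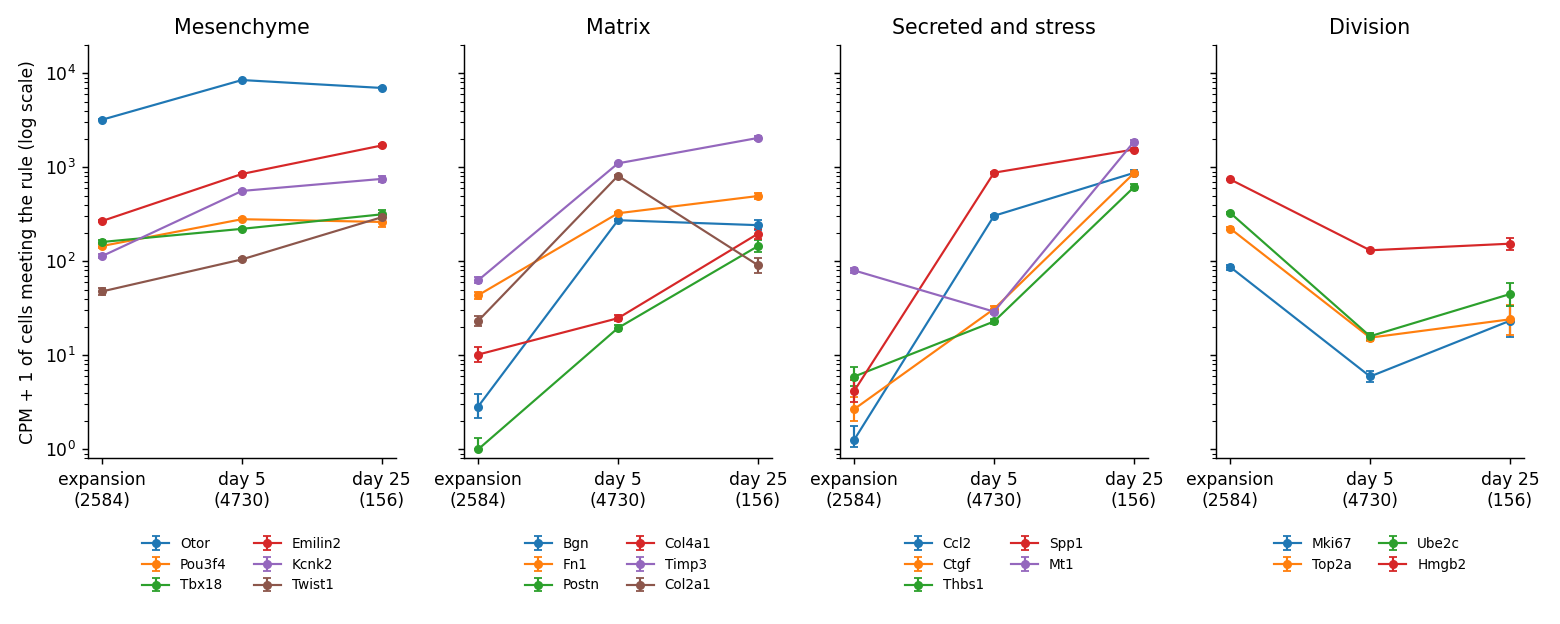
Levels (CPM + 1 of the summed cells, logarithmic axis, bars exact Poisson 95% intervals) of 21 genes in cells that meet the rule in each library, with the number of cells in parentheses. Pou3f4 is at 145, 279 and 261 CPM in expansion, day 5 and day 25, while Ctgf goes from 1.68 to 30.2 and 862 CPM and Col2a1 peaks on day 5 at 811 CPM.

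Against cells of the rule in expansion, 2477 of 6688 genes were higher on day 25 (37%) and 481 lower (7.19%), with a median log2 ratio of 0.64. TMM scaling reversed this split, with 1166 higher and 1396 lower (median -0.12), and so did median of ratios scaling, with 1187 and 1362 (median -0.11). With either scaling the complement, chemokine and acute phase list still had 11 of 11 genes higher and the G2/M list 20 of 20 lower, whereas the fibrillar collagen and matrix list had 14 of 20 higher and 2 lower, and the BMP and TGF-beta list 12 of 19 higher. Among the largest differences, Ccl2 had 3 UMIs in expansion and 870.3 CPM on day 25, and Spp1 (osteopontin) was at 1544 against 3.18 CPM, 486-fold (349 to 695) higher. Ctgf and Cyr61 were 514-fold and 225-fold higher, the factor gene Cebpd 264-fold and the collagen gene Col23a1 385-fold. Lcn2, Ccl7 and Ptgs2, a prostaglandin synthase gene, had 1 UMI each in expansion. Of 21 fibrillar collagen and matrix genes, 15 were higher and none lower, with Bgn at 241 against 1.85 CPM and Postn at 144 CPM against 0 UMIs, and all 17 immediate early and stress genes were higher (15 of 16 with either scaling). In the BMP and TGF-beta list 16 of 20 were higher and none lower, and in the complement, chemokine and acute phase list 11 of 11. The remaining cells of both libraries differed in the same direction. Their immediate early and stress list summed to 13906 CPM on day 25 and 1649 in expansion, and the complement, chemokine and acute phase list to 1685 and 197. Their matrix list differed less, at 3399 and 2363 CPM. Spp1 was found in 74.6% of Pou4f3-positive day 25 cells. The part of the library in these differences was not tested. Ccl2, Ccl7 and Lcn2 rest in part on few members, as given above.

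Cell division genes were lower on day 25. The remaining cells of the libraries differed likewise, with the G2/M list at 125 CPM on day 25 and 2601 in expansion. All 20 measured G2/M genes and 16 of 18 S phase genes were lower: Top2a was at 23.1 against 222 CPM, 9.60-fold (6.62 to 14.5) lower, Pclaf 11.4-fold, Birc5 8.84-fold, Dut 8.98-fold, Spc24 11.6-fold and Mcm3 13.1-fold lower. Aldh1a3, Mest, an imprinted gene of growing mesoderm, and Scrn1 were 19.02-fold, 18.9-fold and 11.0-fold lower. Of 14 otic mesenchyme factors, 8 were higher on day 25 and 1 lower, or 4 and 1 of 13 with TMM scaling. Twist1 was 6.27-fold and Zeb2 5.08-fold higher. Pou3f4 was 1.81-fold and Tbx18 1.97-fold higher, both short of 2-fold (Pou3f4 log2 ratio 0.85, or 0.21 with TMM scaling), whereas Kcnk2 and Emilin2 were 6.67-fold and 6.38-fold higher, and Emcn was at 826 against 567 CPM.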

How the data were processed

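The authors deposited raw UMI counts per gene and barcode, which, per the file headers, came from Cell Ranger 3.0.1 (expansion, day 5) and 3.1.0 (day 25). GRCm38 and hg38 are the builds given in the submitters' processing notes. From 29098, 14452 and 6613 barcodes, 27996, 13850 and 6264 were kept (at least 500 genes, at most 20% of UMIs on mt- genes). Counts were summed over each group of cells, and genes with at least 20 CPM in either sum, mt- genes left out, counted as different when CPM + 1 differed at least 2-fold. No count model was fitted, since cells of 1 library are not replicates.

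The members and gene lists were chosen with earlier results of these data known. Named genes were the 15 (against other day 25 cells) or 10 (other comparisons) largest differences each way with at least 50 CPM in the higher sum, leaving out ribosomal, mt- and unnamed genes, plus list members with the largest differences or levels; the comparison of clusters was added after seeing the data, with the 20 largest each way. Doublets were called by Scrublet within each library (8.50%, 4.78% and 2.65% of cells) and kept, with an alternative without them. Clusters came from Leiden at resolution 1 (30 clusters). Promoter sequences are from RefSeq, GRCm38.p6, where 10 of the 15 genes with the largest differences toward the members were matched; gene positions are from GENCODE M21. The sources used here state no strand setting for the counting, and overlapping genes were not examined. Some genes are not reported here. The tools were Python 3.11.15, numpy 2.4.6, scipy 1.17.1, pandas 2.3.3, scanpy 1.11.5, matplotlib 3.10.9 and edgeR 4.0.16, the last for TMM factors only.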

Additional observations from a re-analysis of the deposited data

How the results depend on the processing

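Of the summary values (counts of genes called and shares of cells), 109 stayed close to those reported and 36 moved under an alternative. With genes of at least 1 CPM, the numbers higher and lower were 1808 and 2941 against other day 25 cells, 930 and 1098 against Apod-high cells, 2082 and 1462 against day 5, and 4331 and 1325 against expansion, and with at least 50 CPM they were 534 and 630, 119 and 112, 678 and 241, and 1415 and 274, since fewer or more genes were tested. TMM scaling gave 718 and 830 against day 5 and 1166 and 1396 against expansion, and median of ratios scaling gave 750 lower against day 5 and 1187 and 1362 against expansion. The 40 members without an Apod UMI, an alternative chosen after seeing the data, gave 358 and 602 against Apod-high cells and 683 lower against day 5. The share on day 25 was 2.95% with a mitochondrial limit of 10%, 1.87% with Otor of at least 4000 and 1.79% with Apod under 500 CPM. On day 5 it was 36.1% with at least 1000 genes, 28.1% and 37.2% with Otor of at least 4000 and 1000, and 31.9% with Epcam of at most 300. In expansion these last 3 gave 2.10%, 18.5% and 8.46%. The median of the IGF axis list reversed to -0.047 with the mean of per-cell CPM, and that of the hair cell list to 0.67 against Epcam-high cells only. Hp against day 5 reversed to -0.050 with Otor of at least 4000 and to -0.042 in members without an Apod UMI, and Saa3 to -1.33 in the latter; their UMIs lay in 1 and 3 cells. The cause of these changes was not tested. Of named genes, 1270 values stayed close and 189 moved without reversing; of list medians, 1388 and 125. At Leiden resolution 0.5 the members of clusters 22 and 23 fell in the same cluster, and at 2 they stayed apart. No paired analysis was possible because each group is 1 library. Depth limits single genes near the floor of 2.48 CPM in the members.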

Other observations

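Immune and metabolic genes of the members add to the picture given above. Of 9 interferon and MHC class I genes measured, 3 were higher than in the other day 25 cells and 1 lower: Ifitm3 and Ifitm1, genes of membrane proteins that hinder virus entry, were at 1571 and 839.8 CPM against 136 and 179, and Psmb8, a gene of the immunoproteasome, at 35.5 against 4.76 CPM. The class I genes H2-K1 and H2-D1 were at 204 and 203 CPM against 196 and 187. None of 12 unfolded protein response genes was higher and 6 were lower, among them Ddit3 (34.7 against 142 CPM) and Pdia4 (133 against 351 CPM). In the glycolysis and hypoxia list 3 of 12 were higher, with Ldha at 993 against 244 CPM, and 1 lower, the glucose transporter gene Slc2a1 (40.5 against 205 CPM).

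Of 5 neuron genes measured against the other day 25 cells, 4 were lower in the members and 1, Syt1, was higher. The list summed to 264 CPM against 530 CPM. Syt1, the calcium sensor gene of vesicle release, was at 211 CPM (186 to 238) and in 107 of 156 members, against 69.2 CPM in Apod-high and 3.51 CPM in Epcam-high cells, while Tubb3, Stmn2 and Elavl3 had no UMI. Of genes named after their values were seen, Nkx6-1, a factor gene of developing neural and pancreatic cells, had UMIs in 87 members, and Kit, a growth factor receptor gene, in 52 (72.7 CPM against 149 CPM in Pou4f3-positive cells). Among guidance genes 6 of 18 were higher and 7 lower, with the receptor genes Epha3 and Robo2 at 59.5 and 94.2 CPM against 4.40 and 18.8, and the ligand gene Sema3a at 9.09 against 50.9 CPM.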
